A study of Homo sapiens with 10 samples.

Results

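Small nucleolar RNA host genes are genes whose introns carry small nucleolar RNAs (snoRNAs), and most of those described here yield no protein. The group held 35 genes of the 59098 RefSeq genes on chromosomes 1 to 22 and X. It was made of every RefSeq symbol written as SNHG and a number, plus GAS5, ZFAS1, DANCR, TUG1, EPB41L4A-AS1 and CYTOR. The rule used names only, but it was set with earlier results of these data known. RefSeq classed 34 of the 35 as long noncoding RNA (lncRNA) genes, and TUG1 as protein-coding. A snoRNA gene lay inside 32 of them, while CYTOR, SNHG27 and TUG1 held none, so the last 3 are members by name only. The 35 genes were set beside the 18143 other lncRNA genes.

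The data came from CUT&Tag, in which an antibody brings a transposase to its target and the DNA cut there is sequenced. All 10 libraries were from wild-type hTERT-RPE1 cells, which derive from human retinal pigment epithelium and were immortalised by telomerase, and the labels name no treatment. The antibody of 6 libraries was to RNA polymerase II with serine 5 of its C-terminal repeats phosphorylated (Pol II below), the form that begins transcription. That of the other 4 was to monomethylated lysine 4 of histone H3 (H3K4me1), which marks enhancers and flanks promoters. For each target the authors deposited 2 peak lists, called R1 and R2 here, each merged from 3 Pol II or 2 H3K4me1 libraries. The labels do not say whether R1 and R2 came from separate cultures, and the lists give no read counts, so the depth is unknown. A peak in a culture of many cells cannot tell a strong signal in few cells from a weak one in many.

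In a host gene the exons are spliced together and the snoRNAs are trimmed out of the excised introns. C/D box snoRNAs, named SNORD, guide ribose methylation of ribosomal RNA, H/ACA box snoRNAs, named SNORA, guide pseudouridylation, and SCARNA genes encode relatives that act in Cajal bodies. Spliced host RNAs are often short-lived because nonsense-mediated decay removes them, and several begin with a run of pyrimidines (a terminal oligopyrimidine tract) like that of ribosomal protein mRNAs.

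Some starts of the group carry such runs in the reference sequence. A run was scored as a C followed by at least 4 pyrimidines on the gene's own strand. RefSeq promoter entries (build GRCh38.p14, 250 bases before to 50 after the start) matched 31 of the 35 genes. SNHG6, SNHG9, SNHG15 and SNHG25 had no entry. A run beginning among bases 1 to 10 was found in 12 of the 31 (38.7%), against 17.8% of other lncRNA and 20.4% of protein-coding promoters. A run beginning at base 1 itself, a cut chosen after the values were seen, was found in 7 (22.6%), against 3.23% and 4.60%. Those 7 starts are printed to show how much the runs differ in length, each as 30 bases from 10 bases before the start, with the run in capitals.
SNHG4: ctcccggctgCCCTTTCCCCTCCggcctct
SNHG5: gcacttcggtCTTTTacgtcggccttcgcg
SNHG12: gcttcagcgcCCTTTCTCCCCgccgcattc
SNHG18: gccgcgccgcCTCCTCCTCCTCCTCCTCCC
SNHG19: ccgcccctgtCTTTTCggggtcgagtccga
SNHG32: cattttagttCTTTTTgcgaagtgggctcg
ZFAS1: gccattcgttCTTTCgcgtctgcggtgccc
SNHG18 had the longest run of the 7, made of CTC repeats, and SNHG5, SNHG19, SNHG32 and ZFAS1 had short ones. Pol II of both lists lay within 1 kb of the start at 5 of the 7, and not at SNHG4 and SNHG32.

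The 300-base promoters are shown for 5 of the 6 genes with the strongest Pol II whose start had Pol II of both lists. They were chosen because the Pol II peaks described below lie on them. Capitals mark matches, on either strand, to 8 searched motifs: the TATA box (TATAAA), the CCAAT box, the E-box (CACGTG), the GC box (GGGCGG), an ETS factor motif (CCGGAAG), part of the NRF1 motif (GCGCATGC), the palindrome CTCGCGAG and part of the YY1 motif (ATGGCGG). Matches that overlap were each counted.
SNHG29 (chr17:16438737-16439036, plus strand): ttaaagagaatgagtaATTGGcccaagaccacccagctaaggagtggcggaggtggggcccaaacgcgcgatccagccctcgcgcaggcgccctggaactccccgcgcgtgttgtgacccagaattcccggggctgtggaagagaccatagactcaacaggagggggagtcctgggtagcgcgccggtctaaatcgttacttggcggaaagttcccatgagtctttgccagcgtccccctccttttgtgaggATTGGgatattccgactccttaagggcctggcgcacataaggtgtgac
SNHG3 (chr1:28505693-28505992, plus strand): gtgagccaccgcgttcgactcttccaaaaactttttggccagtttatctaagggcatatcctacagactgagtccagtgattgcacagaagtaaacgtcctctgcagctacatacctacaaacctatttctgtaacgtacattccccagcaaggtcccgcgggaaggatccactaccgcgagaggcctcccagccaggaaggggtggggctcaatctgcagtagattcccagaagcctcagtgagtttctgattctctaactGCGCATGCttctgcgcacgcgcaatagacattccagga
SNHG19 (chr16:2155309-2155608, minus strand): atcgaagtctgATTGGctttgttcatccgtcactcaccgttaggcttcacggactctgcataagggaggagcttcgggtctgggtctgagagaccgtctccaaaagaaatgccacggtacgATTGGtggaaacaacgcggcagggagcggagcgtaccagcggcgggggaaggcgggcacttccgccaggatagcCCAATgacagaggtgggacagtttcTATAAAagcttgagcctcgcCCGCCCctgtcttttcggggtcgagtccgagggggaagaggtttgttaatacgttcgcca
ZFAS1 (chr20:49278392-49278691, plus strand): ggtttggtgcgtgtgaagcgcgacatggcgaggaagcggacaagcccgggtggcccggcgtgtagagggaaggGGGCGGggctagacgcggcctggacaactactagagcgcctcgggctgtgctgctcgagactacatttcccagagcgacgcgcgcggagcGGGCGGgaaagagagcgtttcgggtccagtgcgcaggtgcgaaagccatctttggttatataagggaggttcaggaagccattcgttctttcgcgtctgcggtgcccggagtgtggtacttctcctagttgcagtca
SNHG1 (chr11:62855836-62856135, minus strand): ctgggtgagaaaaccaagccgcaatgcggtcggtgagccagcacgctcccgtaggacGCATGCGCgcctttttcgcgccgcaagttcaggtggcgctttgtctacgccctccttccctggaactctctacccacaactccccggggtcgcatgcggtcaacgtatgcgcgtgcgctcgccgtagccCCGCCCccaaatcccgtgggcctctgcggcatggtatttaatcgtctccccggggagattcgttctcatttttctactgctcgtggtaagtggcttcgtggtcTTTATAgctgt
No motif was in all 5. The GC box was in SNHG19, ZFAS1 and SNHG1, CCAAT in SNHG29 and SNHG19, and TATAAA in SNHG19 and, after the start on the opposite strand, in SNHG1. The NRF1 letters were in SNHG3, after its start, and in SNHG1. Of the SNHG1 window, 27 bases lie inside the gene model of SLC3A2. The entry for the sixth gene, GAS5, lay wholly within the model of ZBTB37 and is not printed.

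Over the 31 promoters, the GC box, known from SP1 binding, was found in 21 (67.7%), against 25.4% of other lncRNA, 58.5% of protein-coding and 44.7% of all promoters. CCAAT was found in 11 (35.5%), against 35.7% of all promoters, and TATAAA in 4 (12.9%), against 12%. GCGCATGC was found in SNHG1, SNHG3, SNHG8 and SNHG27 (12.9%), against 3.28% of all promoters. ATGGCGG was found in SNHG27, SNHG30, SNHG32 and TUG1 (12.9%), against 5.74%. CACGTG was found in 3 (9.68%), against 7.45%, and the ETS factor motif in 2 (6.45%), against 10.7%. CTCGCGAG had no match in these 31 windows and was found in 1.06% of all promoters. The base composition was close to that of coding promoters: the median GC content was 62.3%, against 62.7% in protein-coding and 49.7% in other lncRNA promoters, and the median number of CpG sites was 25, against 22 and 5. Within the group GC ranged from 37.7% at GAS5 to 81.3% at SNHG18. These matches are a description of letters and were not tested as sites.

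Pol II of both lists was found within 1 kb of an end or inside 34 of the 35 genes (97.1%, 95% Wilson interval 85.5 to 99.5). The same was found in 23.9% of other lncRNA genes and 57.6% of protein-coding genes. H3K4me1 of both lists was found within 5 kb of 33 (94.3%, 81.4 to 98.4), against 58.0% of other lncRNA and 82.4% of protein-coding genes. Both targets were present at 32 (91.4%), against 23.2% of other lncRNA genes. CYTOR and TUG1 had Pol II without H3K4me1 of both lists, and SNHG32 had H3K4me1 without Pol II of both lists. Within 1 kb of either end of the gene, both lists had Pol II in 28 (80.0%, 64.1 to 90), against 15.2% of other lncRNA and 39.8% of protein-coding genes. Where the peaks of the 2 lists had to overlap each other, this share was 68.6% (24 of 35). With no margin around the ends it was 48.6% (17 of 35). Neither value was computed for the other classes, so they cannot be set beside 15.2% and 39.8%. These intervals cover the counting of genes only, and no test was made because the design has 1 condition and the members were chosen with earlier results known.

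The presence of Pol II was also high in other genes that hold snoRNAs. Of 551 protein-coding genes with a snoRNA gene inside, 84.0% had Pol II of both lists and 95.5% had H3K4me1. Of 119 other lncRNA genes with a snoRNA gene inside, 51.3% had Pol II and 73.9% had H3K4me1. These classes are longer, with a median of 77.0 kb and 44.0 kb against 6.20 kb for the 35 genes and 9.10 kb for other lncRNA genes. At an end, where length gives no more room, Pol II was found in 55.7% of the protein-coding and 31.1% of the lncRNA snoRNA hosts. Among other lncRNA genes with a name other than a LOC number, 33.3% had Pol II of both lists.

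**Figure D1:**
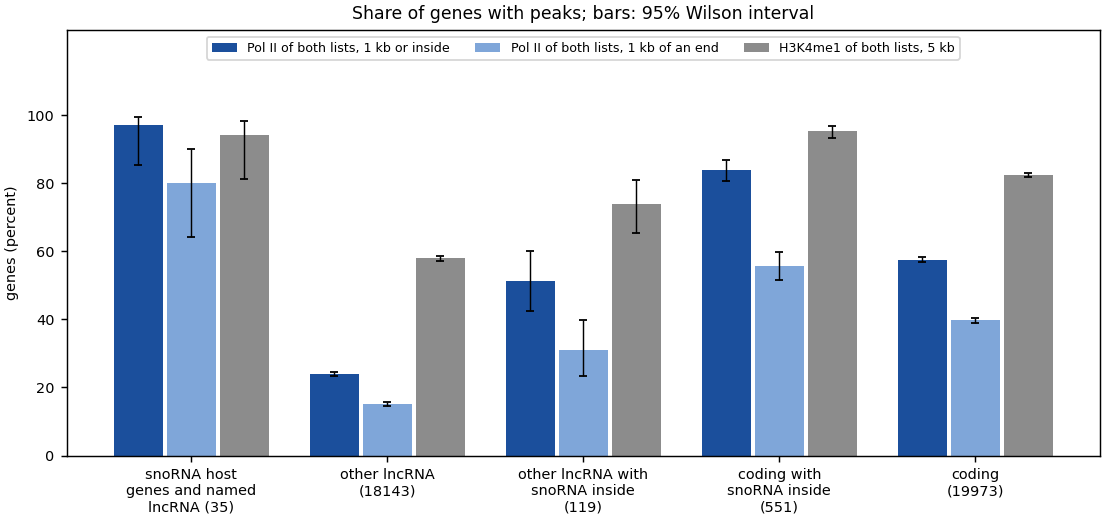
Percent of genes (vertical axis) with Pol II of both lists within 1 kb or inside, with both lists' Pol II no more than 1 kb from an end, and with H3K4me1 of both lists within 5 kb, in 5 classes whose number of genes is in brackets. Bars are the share and whiskers its 95% Wilson interval; the 35 genes stand at 97.1%, 80.0% and 94.3%, and other lncRNA genes at 23.9%, 15.2% and 58.0%.

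Neighbouring coding genes and gene length moved with these shares. An end of a protein-coding gene lay within 1 kb of 22 of the 35 genes (62.9%), but of only 17.4% of other lncRNA genes. Among genes with such a neighbour, all 22 had Pol II of both lists, against 52.8% of other lncRNA genes. Of the 33 other lncRNA genes with both a snoRNA gene inside and such a neighbour, 29 had it (87.9%). At an end it was found in 18 of the 22 (81.8%) and in 75.8% of the 33. Among genes without a coding neighbour, 12 of 13 had Pol II of both lists (92.3%, 66.7 to 98.6), against 17.9%, and at an end 10 of 13 (76.9%), against 8.77%. For the 86 other lncRNA genes with a snoRNA gene inside and no such neighbour, the shares were 37.2% and 14.0%. Only ends were searched, so a gene within a coding gene can be among the 13. All 300 promoter bases of EPB41L4A-AS1 and SNHG17, both among them, lay in coding gene models. The share of other lncRNA genes with Pol II thus differed between genes with and without a coding neighbour, and the part of neighbours in the shares of the group was not tested. By length, Pol II of both lists was found in 15 of 16 genes under 5 kb, in 12 of 12 of 5 to 20 kb and in 7 of 7 over 20 kb. The same shares of other lncRNA genes were 17.6%, 21.1% and 34.8%.

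Peaks from the top of the Pol II lists were frequent in the group. Peaks were ranked within each list by the deposited −log10 q value, a measure of peak significance, and a gene took the percentile of its strongest peak. A peak at an end in the top 10% of both lists was found at 8 of 35 genes (22.9%), against 2.15% of other lncRNA and 5.83% of protein-coding genes. In the top 5% of both lists stood 7 (20%), against 0.970% and 2.87%. The deposited fold, the enrichment of a peak over background, was not high in the same way. The median fold of the strongest peak was 6.36 in R1 and 5.09 in R2, against 6.15 and 5.33 in other lncRNA genes that had a peak and 6.57 and 5.55 in protein-coding genes. The median percentile was 80.6 and 77.1, against 66.2 and 67.1 in other lncRNA and 74.6 and 75.3 in protein-coding genes. Other genes with a snoRNA gene inside stood higher than the group, at 81.9 and 79.2 for lncRNA and 84.4 and 84.9 for protein-coding genes. In the top 10% of both lists at an end were 7.56% and 8.89% of these classes. The fold was higher in R1 than in R2 in 29 of the 34 genes with both (85.3%), as it was in 73.8% of other lncRNA genes, so folds are compared only within a list.

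**Figure D2:**
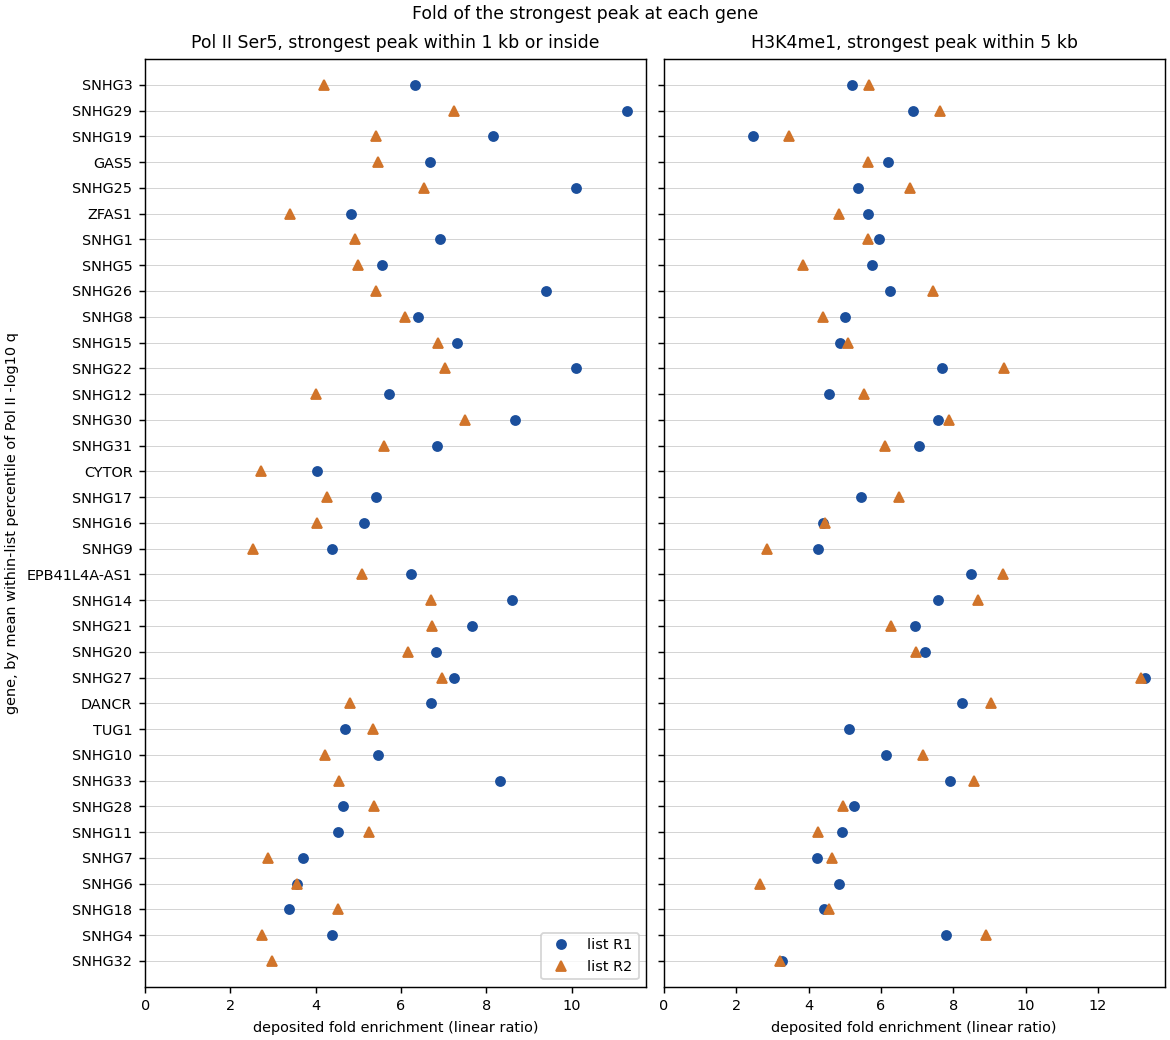
Deposited fold enrichment (linear ratio, horizontal axes from 0) of the strongest Pol II peak within 1 kb or inside (left) and of the strongest H3K4me1 peak within 5 kb (right), with genes ordered by mean within-list percentile of Pol II −log10 q. Circles are list R1 and triangles list R2, 1 value each; SNHG29 reaches 11.3 and 7.25 for Pol II, SNHG27 reaches 13.3 and 13.2 for H3K4me1, and CYTOR has no H3K4me1 point.

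SNHG29 and SNHG3 had the strongest Pol II of the group. SNHG29 (chr17:16438987-16470648) hosts SNORD49A, SNORD49B and SNORD65. Its strongest peak had a fold of 11.3 in R1 and 7.25 in R2, with −log10 q of 103 and 79.1, at percentiles 99.8 and 99.6. The summits lay 76 and 79 bp upstream of the start, on the promoter printed above. SNHG3 (chr1:28505943-28510892), the host of the H/ACA snoRNAs SNORA73A and SNORA73B, had folds of 6.33 and 4.19. Its −log10 q was 91.1 and 76.6, so with a much lower fold than SNHG29 it held nearly the same rank, at percentiles 99.7 and 99.6. The summit was 48 bp upstream in R1 and 50 bp downstream in R2. SNHG3 had 3 Pol II peaks in each list, and the second had its summit 3214 bp downstream of the start in both lists and overlapped SNORA73B. The start of RCC1, a protein-coding gene on the same strand, is 100 bp away, so the peak at the start cannot be assigned to either gene.

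SNHG19, GAS5 and SNHG25 followed. SNHG19, a gene of only 577 bp that hosts SNORD60, had folds of 8.16 and 5.42 with summits 188 and 187 bp upstream. The coding gene TRAF7 starts 424 bp away on the opposite strand, and the summits lay 236 and 237 bp from that start, almost midway. GAS5, which hosts 11 snoRNA genes and is known to accumulate in growth-arrested cells, had folds of 6.68 and 5.46 with −log10 q of 50.8 and 63.0. Its summit lay 1030 bp inside the annotated start in both lists, and neither peak covered the start base. The start of ZBTB37 on the opposite strand was 365 bp from those summits, closer than the annotated start of GAS5. SNHG25, a gene of 340 bp that hosts SNORD104, had folds of 10.1 and 6.53.

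ZFAS1, SNHG1, SNHG5 and SNHG8 each had the strongest summit close to the start in both lists. ZFAS1, which hosts SNORD12, SNORD12B and SNORD12C and lies beside ZNFX1, had folds of 4.82 and 3.39 with summits at −28 and +23 bp. Its percentiles were 97.1 and 96.0, with 3 peaks in R1 and 4 in R2, the second of which had its summit at +5512 and +5229 bp. SNHG1, with 9 snoRNA genes in 3908 bp, had folds of 6.91 and 4.93 and summits at −26 and −30 bp. SNHG5, the host of SNORD50A and SNORD50B, had folds of 5.55 and 4.99 and summits at −30 bp in both lists. SNHG8, the host of SNORA24, had folds of 6.39 and 6.09 and summits at −30 and −32 bp. In each of the 4 the summits of the lists were within 200 bp of each other.

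The other genes of the highest 12 were SNHG26, SNHG15 and SNHG22. SNHG15, which hosts SNORA9, had folds of 7.30 and 6.86. SNHG22, which holds SCARNA17, had folds of 10.1 and 7.04 with summits at −172 and −169 bp. The coding gene ACAA2 starts 490 bp away on the opposite strand and was 318 and 321 bp from those summits. SNHG26, the host of SNORD93, was the exception in this set, since its strongest peak, with folds of 9.39 and 5.41, lay 4967 and 4727 bp inside the gene. Neither end of SNHG26 had a Pol II peak of either list within 1 kb. H3K4me1 was strongest at the same place, with folds of 6.24 and 7.44 and summits at +4896 and +4993 bp.

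The genes with other names ranked lower than GAS5 and ZFAS1. DANCR, an lncRNA known to hold back cell differentiation and the host of SNORA26, had folds of 6.70 and 4.80 with summits at −59 and −21 bp. EPB41L4A-AS1, which holds SNORA13, had folds of 6.24 and 5.09 with summits at +286 and +290 bp, and its start base was not covered. TUG1, an lncRNA known from the developing retina, had folds of 4.69 and 5.34 with summits 101 and 143 bp upstream. MORC2 starts 491 bp from TUG1 on the opposite strand. An H3K4me1 peak with a fold of 5.11 lay at TUG1 in R1, and in R2 the nearest was 70632 bp away.

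CYTOR, an lncRNA named as a regulator of the cytoskeleton, was the only gene of the group with no H3K4me1 peak within 5 kb in either list. It held 7 Pol II peaks in each list, and the strongest had folds of 4.03 in R1 and 2.71 in R2. The R1 summit was 142 bp upstream of the start and the R2 summit 5500 bp inside, with a further R2 peak at +186 bp. The nearest H3K4me1 peak was 361431 bp away in R1 and 361640 bp in R2. CYTOR has a near-identical copy on the same chromosome within MIR4435-2HG, and the handling of reads that match both was not stated, so its values are uncertain.

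SNHG32 was the only gene without Pol II in both lists. R2 had 2 peaks there, with folds of 2.98 and 2.85 and summits at +1981 and −60 bp, and in R1 the nearest peak was 3485 bp away. Its H3K4me1 folds, 3.26 and 3.22, stood at percentiles 25.7 and 21.8, among the lowest of the group. The weakest genes with Pol II of both lists were SNHG4, SNHG18, SNHG6 and SNHG7. SNHG4, which shares its annotated start with MATR3, had folds of 4.37 and 2.74 at +8207 and +8281 bp. SNHG18 had folds of 3.37 and 4.52, with summits at +103 bp in R1 and +1532 bp in R2 that were not the same peak. SNHG6 had folds of 3.57 in both lists, and SNHG7 had 3.70 and 2.89. Pol II peaks of the lists overlapped each other in 30 of the 35 genes, and did not in SNHG6, SNHG11, SNHG18, SNHG28 and SNHG32.

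The 14 remaining genes in order of mean percentile were SNHG12, SNHG30, SNHG31, SNHG17, SNHG16, SNHG9, SNHG14, SNHG21, SNHG20, SNHG27, SNHG10, SNHG33, SNHG28 and SNHG11. Their mean percentiles ran from 86.9 at SNHG12 down to 50 at SNHG28 and 49.0 at SNHG11. SNHG12 had folds of 5.71 and 4.01 with summits at −84 and −23 bp of a start that lies 1110 bp inside its gene model. SNHG21 had folds of 7.66 and 6.73 with summits at −180 and −173 bp. SNHG30 had folds of 8.67 and 7.50 with summits at −128 and −107 bp. These 3 again had their strongest peak at the start. At SNHG31, with folds of 6.84 and 5.61, the summits were 135 and 141 bp from the start of BARD1 and 411 and 405 bp from that of SNHG31. At SNHG10, which holds SCARNA13, GLRX5 starts 178 bp away on the opposite strand, and the folds were 5.47 and 4.21. In all, 7 genes had a protein-coding start on the opposite strand within 1 kb: GAS5, SNHG10, SNHG18, SNHG19, SNHG22, SNHG31 and TUG1.

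Where the start was known, Pol II lay at the start far more often than at the other end. Of the 31 genes, 22 had Pol II of both lists within 1 kb of the start and 5 within 1 kb of the other end. It was at the start only in 18, at start and other end in SNHG3, SNHG5, SNHG8 and SNHG19, and at the other end only in SNHG33. Neither end had it in 8, among them SNHG11, where R1 had it at the other end and R2 at the start. The 4 genes with it at both ends are 577 to 4950 bp long, and at SNHG8 and SNHG19 the strongest peak reached both windows. At SNHG33 the folds were 8.32 and 4.54 with summits at +7590 and +7532 bp. The start base itself was inside a peak of both lists in 15 genes for Pol II and in 15 for H3K4me1.

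**Figure D3:**
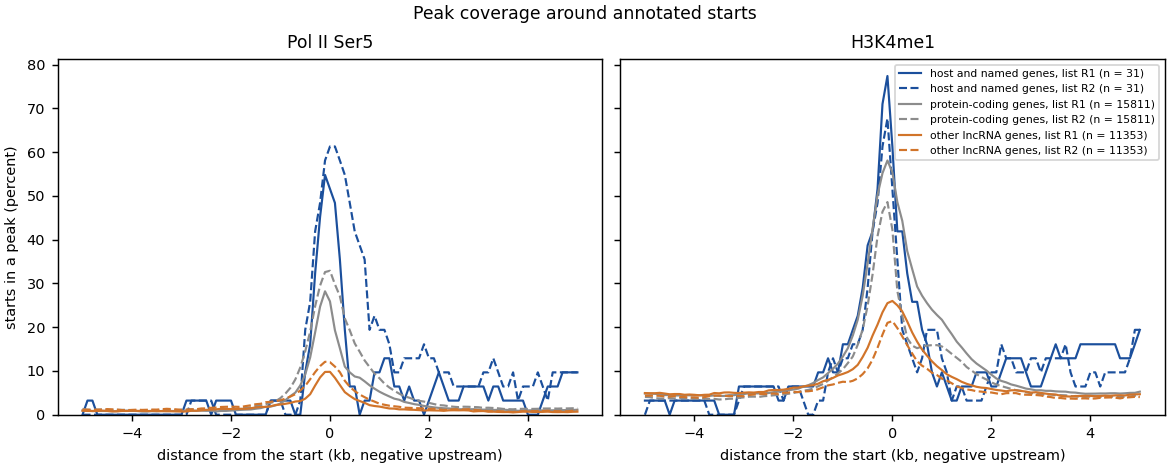
Percent of annotated starts inside a peak (vertical axes) at each 100-bp step from 5 kb upstream to 5 kb downstream (horizontal axes, kb) for Pol II (left) and H3K4me1 (right); solid lines are list R1, dashed lines list R2, and the number of starts in each class is in the legend. For the 31 host and named genes the Pol II curve peaks at 54.8% and 61.3%, above protein-coding genes at 28.2% and 32.9% and other lncRNA genes at 9.80% and 12.1%.

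Around the start, cover by peaks was highest within 100 bp for both targets. Pol II covered 54.8% of the 31 starts 100 bp upstream in R1 and 61.3% at the start base in R2. The highest values were 28.2% and 32.9% for protein-coding and 9.80% and 12.1% for other lncRNA starts. H3K4me1 covered 77.4% and 67.7% of the starts of the group 100 bp upstream, against 58.1% and 48.6% for protein-coding and 26.0% and 21.4% for other lncRNA starts. At the start base itself H3K4me1 covered 61.3% in R1 and 51.6% in R2.

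**Figure D4:**
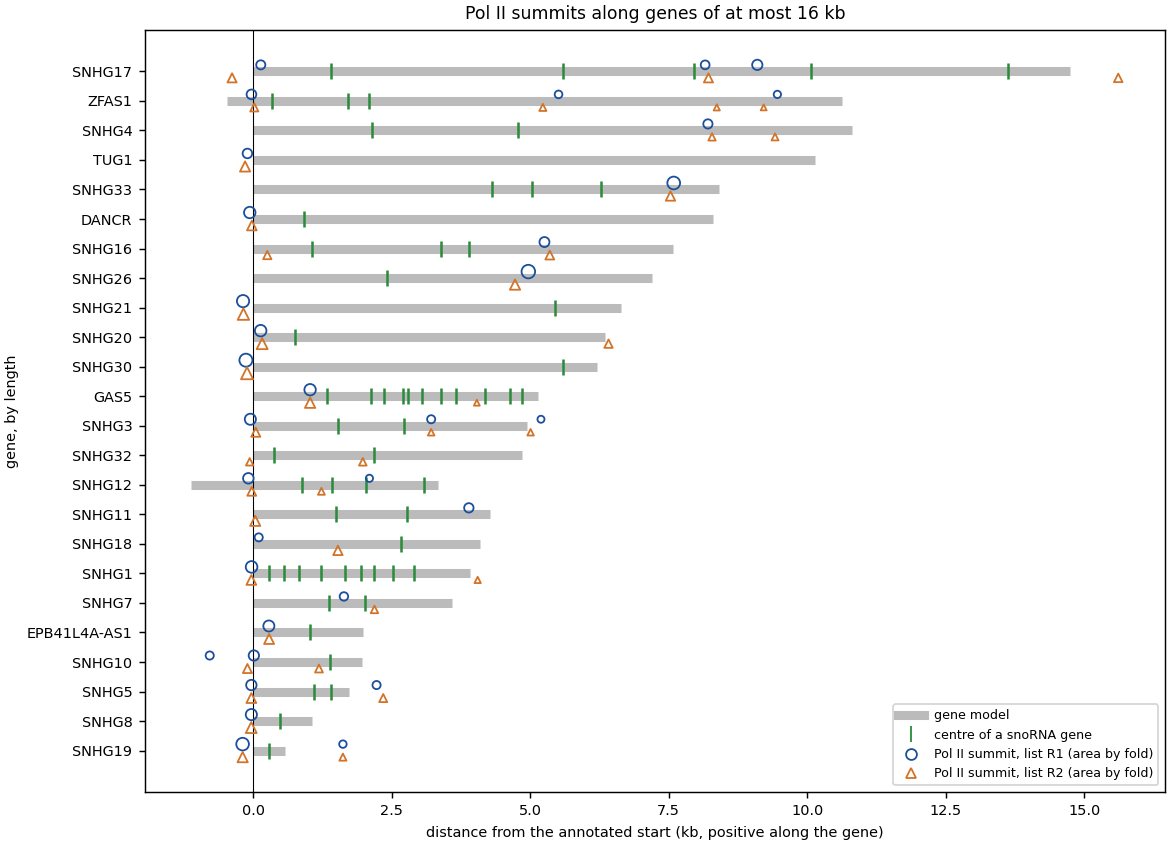
Pol II summits along the 24 genes of at most 16 kb with a known start (horizontal axis, kb from the start; genes sorted by length), with the gene model as a grey bar, snoRNA gene centres as green ticks, list R1 as circles above and list R2 as triangles below, area by deposited fold. In SNHG1, SNHG5 and SNHG8 the strongest summits stand at the start in both lists, while those of SNHG26, SNHG33 and SNHG4 lie inside the gene. Those of SNHG19 lie 188 and 187 bp upstream, between its start and that of TRAF7.

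Within the genes, the strongest summit lay within 300 bp of the start in both lists in 16 genes and over 1 kb inside in both lists in 9. The lists placed it within 200 bp of each other in 22 genes. Pol II of both lists was inside the gene but at neither end in 6: SNHG4, SNHG7, SNHG14, SNHG16, SNHG26 and SNHG27. That is 17.1% of the 35, near the 17.8% of protein-coding genes. The share was 8.76% of other lncRNA genes and 20.2% of those with a snoRNA gene inside. SNHG14, the imprinted host of the SNORD115 and SNORD116 clusters and the longest gene at 595855 bp, had 4 peaks in R1 and 7 in R2. Its strongest lay 555080 bp from the start in R1, with a fold of 8.59, and 132950 bp in R2, with a fold of 6.70. The protein-coding gene SNRPN, on the same strand, has an end 29 bp from an end of SNHG14. The strongest summits lay 522117 bp (R1) and 99987 bp (R2) from the annotated start of SNRPN. Only gene ends within 1 kb were searched, so any other coding gene that overlaps SNHG14 is not named here. Which gene these peaks belong to was not tested. SNHG16, which hosts SNORD1A, SNORD1B and SNORD1C, had its strongest peak at +5258 and +5354 bp with folds of 5.12 and 4.04. In R2 it had a further peak at +258 bp with a fold of 3.52, which R1 lacked. SNHG27 had folds of 7.23 and 6.95 at +9661 and +9655 bp.

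H3K4me1 near the group was about as strong as near other lncRNA genes. The median percentile of the strongest peak within 5 kb was 73.8 in R1 and 71.4 in R2, against 73.8 and 72.5 for other lncRNA genes with a peak. The median folds, 5.69 and 5.68, were below their 6.46 and 6.5. The longer snoRNA-holding classes stood above the group, at percentiles 87.0 and 86.5 for other lncRNA and 85.7 and 85.5 for protein-coding genes. All protein-coding genes stood at 79.0 and 77.3. SNHG27 had the highest folds of the group, 13.3 and 13.2, with both summits at +9660 bp, on its Pol II peak. The next in R1 were EPB41L4A-AS1 at 8.49 and DANCR at 8.25, and in R2 SNHG22 at 9.41, EPB41L4A-AS1 at 9.38 and DANCR at 9.04. SNHG19 had the lowest R1 fold, 2.46, with the summit at +4282 bp, and SNHG6 the lowest R2 fold, 2.65. In R2 the strongest H3K4me1 peak of SNHG19 had a fold of 3.47 and stood mid-list, at percentile 50.4. Its summit was at −187 bp, that of the R2 Pol II peak. At SNHG1, SNHG5, SNHG8, SNHG19, ZFAS1 and CYTOR the start base was not covered by H3K4me1 in either list, although Pol II covered it in both. At SNHG1, SNHG5 and SNHG8 the nearest H3K4me1 peak began 23 to 51 bp from the gene. There the mark lay beside the base where transcription is annotated to start. At SNHG19 the nearest peak was 1222 bp from the gene in R1 and 48 bp in R2, and CYTOR had none within 5 kb.

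The snoRNA genes inside the group were seldom under a Pol II peak. Pol II of both lists overlapped 7 of 154 (4.55%, 2.22 to 9.08), against 1.72% of those in other lncRNA genes and 3.71% of those in protein-coding genes. These intervals overlap. SNHG14 holds 84 of the 154, none of them under a Pol II peak of either list, and without it the share was 7 of 70 (10%, 4.93 to 19.2); no host was left out of the other classes. The 7 were SNORD74 in GAS5, SNORD25 in SNHG1, SNORA71A in SNHG17, SCARNA17 in SNHG22, SNORD104 in SNHG25, SNORD49A in SNHG29 and SNORA73B in SNHG3. Of these, SNORD74 and SNORD25 are the snoRNA genes nearest the start of their hosts, and SCARNA17 begins at the start base of SNHG22. H3K4me1 of both lists overlapped 3 of the 154 (1.95%), against 4.02% in other lncRNA genes and 6.34% in protein-coding genes. By kind, 11 genes held C/D box snoRNAs only, and the 10 of them with Pol II of both lists had a median percentile of 95, with a range of 37.0 to 99.7; SNHG32 had none to give. The 10 with H/ACA snoRNAs only had 75.7, with a range of 28.0 to 99.7. The 4 with Cajal body RNAs had 71.7 and the 3 without a snoRNA gene 65.5. The ranges overlap almost wholly, and kinds were not compared by a test.

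Genes for the proteins that bind, release or degrade these RNAs mostly had Pol II as well. Of 20 genes for proteins of snoRNA particles and their assembly, 17 had Pol II of both lists in the window, 12 at an end, and all 20 had H3K4me1. NOP58, a core C/D box protein, had the highest folds of this list, 15.3 and 10.5. FBL, the methyltransferase of C/D particles, had 7.62 and 5.46, and DKC1, the pseudouridine synthase of H/ACA particles, had 7.87 and 7.0. NOP10, RPAP3 and ZNHIT3 had Pol II in R1 only, with folds of 5.10, 5.71 and 3.07. Of 15 genes of nonsense-mediated decay, 14 had peaks of both lists at an end, among them UPF1, its central helicase, with folds of 5.15 and 3.71. MAGOH, of the exon junction complex, had Pol II in R2 only, with a fold of 3.56. Of 9 genes for snoRNA release, end trimming and binding of pyrimidine-tract RNAs, 8 had them at an end. LARP1, which binds RNAs that begin with such tracts, had folds of 6.63 and 5.28. DBR1, which opens intron lariats, had Pol II in R2 only, with a fold of 5.96. These counts stand beside 57.6% of protein-coding genes with Pol II in the window and 39.8% at an end.

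The label of the line was checked against marker genes. Of 15 retinal pigment epithelium genes, all had H3K4me1 of both lists within 5 kb, 7 had Pol II in the window in both lists and 3, PMEL, RDH5 and RDH10, had it at an end. Over all protein-coding genes these shares were 82.4%, 57.6% and 39.8%, so Pol II was found at fewer of these markers than of coding genes in general. RPE65, RLBP1, LRAT, RGR, TTR, DCT and TYRP1, which serve the visual cycle, retinol transport or pigment, had no Pol II peak in the window in either list. Of 7 epithelial and mesenchymal genes, all had Pol II in the window, KRT8 with folds of 9.51 and 7.02. Of 10 photoreceptor, blood and neuron genes, NRL, PTPRC, SNAP25 and SYT1 had Pol II of both lists in the window. The lists held 49351 and 47180 Pol II and 123666 and 124465 H3K4me1 peaks on the chromosomes used.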

How the data were processed

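The deposited files were 4 peak lists in narrowPeak layout, 1 for each target and R number, merged by the authors over libraries that differ in T number. BWA, SICER and deepTools are named without roles or versions, with the build hg38, per the submitters' processing notes. No label or header names the peak caller, its threshold or a control. The deposited ratio was read as the fold enrichment of a peak, and the deposited −log10 q value was never below 1.00. The other deposited value gives how many bases into the peak the summit lies. Every value of a peak is the authors' own and was used only to describe or rank peaks within its list.

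Gene spans came from RefSeq (GRCh38.p14) and starts, strands and sequences from the RefSeq promoter table, which had no entry for 4 of the 35 genes. A gene was called when each list had a peak overlapping its window by 1 bp or more: the gene and 1 kb to either side for Pol II, 1 kb around an end, or the gene and 5 kb for H3K4me1. A snoRNA gene was counted inside a gene when its span lay within. Motifs were searched on both strands. Full values are given for the 12 genes with the highest mean percentile of −log10 q, for members not named SNHG and for genes with Pol II in 1 list. Neighbours are named within 1 kb, and promoters were considered for the 6 strongest genes with Pol II at the start. Other genes are examples chosen after their values were seen. The members and gene lists were chosen with earlier results of these data known. Computations used Python 3.11.15 (pandas 2.3.3, numpy 2.4.6, scipy 1.17.1), and plots matplotlib 3.10.9. The overlap look-up was tested on simulated peaks. Depth is unknown, and Wilson intervals of 95% cover the counting of genes only. Alternatives were each list alone, stronger peaks, other windows, summits in place of peaks, genes without coding neighbours and other comparison genes.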

Additional observations from a re-analysis of the deposited data

How the results depend on the processing

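The 5 shares compared in the report were recomputed under each alternative and counted as moved when they changed by more than 1.5 times. With peaks at or above the median −log10 q, Pol II of both lists was found in 74.3% of the 35 genes and in 15.9% of other lncRNA genes. Such peaks were found at an end in 60.0% of the 35, a share not computed for other genes. Against other lncRNA genes that hold a snoRNA gene, the comparison value was 51.3%. With no margin around the ends, Pol II touched an end in 48.6% of the 35 genes, and this share was not computed for other genes. With each list alone, Pol II was found in 97.1% to 100% of the 35 genes and 28.3% to 28.6% of other lncRNA genes, and at an end in 80.0% to 85.7% of the 35. H3K4me1 was found in 94.3% to 97.1% of the 35 and 59.9% to 60.8% of other lncRNA genes. The remaining settings from the plan (wide windows, summits, no coding neighbour, start only and names other than LOC) moved no share past that limit. Chosen after seeing the data were 2 more. When peaks of the lists had to overlap each other, Pol II was found in 85.7% of the 35 and 22.7% of other lncRNA genes. Under the same condition it was found at an end in 68.6% of the 35. In genes of at most 20 kb, Pol II within 1 kb or inside was found in 96.4% and 19.5%. No paired analysis was possible because the results come from no test. The lists give no depth, so a gene without a peak may have had signal below the unknown threshold.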
